A study of Capra hircus with 36 samples.

Results

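The livers of goats from high and low altitude were compared across all miRNAs, with every library labelled liver taken as a member, which gave 6 of the 36 libraries of the study. The 3 high-altitude livers came from Tibetan Goats at 3000 m and the 3 low-altitude livers from a low-altitude population, named by the study as Chuandong White goats, at 600 m, all adult females of about 3 years, given in the labels as over 3 years. Breed and altitude therefore cannot be told apart, nor can the way of keeping, since the Tibetan goats were stocked on range and the low-altitude goats were home-reared on natural pasture grass. The study asked which miRNAs of hypoxia-sensitive tissues differ with altitude, and took heart, kidney, lung, longissimus muscle and spleen from the same goats. Small RNA of whole liver was sequenced, so that each value is a sum over all liver cell types. The values are numbers of reads per mature miRNA, as deposited. They summed to 7865027, 9205957 and 9160981 counts in high-altitude replicates 1, 2 and 3 and to 8685602, 7108635 and 8399849 in low-altitude replicates 1, 2 and 3, and values in this order are given throughout. At these depths 3 counts, the limit that a count of 0 allows, equal 0.326 to 0.422 counts scaled to a library total of 1000000 counts (CPM). This limit covers counting error alone, since reads without molecular identifiers are not independent molecules.

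A miRNA is cut as a short duplex from a hairpin precursor, and either strand, named 5p or 3p by the arm it comes from, can be loaded into the silencing complex. The loaded strand pairs with messenger RNAs mainly through its seed, bases 2 to 8, and lowers their translation and stability. In the liver the best known is miR-122, made almost entirely by hepatocytes, where it acts on cholesterol and lipid metabolism. Of the listed miRNAs, those in the Known class match a goat sequence of miRBase and those in the Conserved class match another mammal. The goat prefix of the names is left out here.

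The label liver held in all 6 libraries. miR-122-5p had 6118 CPM in the liver library with the least, against at most 208 CPM in any library of the other tissues, reached in kidney. Its other arm, miR-122-3p, had at least 38.0 CPM in liver and at most 4.09 CPM elsewhere. miR-194-5p, an epithelial and hepatocyte miRNA, ran from 11198 to 22911 CPM in liver, above the highest value of the next tissue, kidney, at 4518 CPM. Of 7 hepatocyte marker stems, miR-192 was not analysed here and the others gave 14 listed arms, all with counts in liver.

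miR-122-5p itself was uneven between the goats. Its counts were 133354, 56323 and 1648215 in high-altitude livers against 232485, 380357 and 170157 in low-altitude livers, or 16955, 6118 and 179917 CPM and 26767, 53506 and 20257 CPM. High-altitude replicate 3, in which it was the most abundant miRNA, stood far above the other 5 libraries, while replicates 1 and 2 of the same altitude lay below every low-altitude library. The log2 fold change, high over low, was 1.44 (SE 1.25) with an adjusted p of 0.811 in edgeR, and without high-altitude replicate 3 it was -1.29, so that 1 library set its direction. miR-122-3p, counted at 518, 762 and 388 and 991, 536 and 319, did not share the excess of that library. In bulk liver, fewer cells of a type and less of a miRNA per cell cannot be told apart.

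Among the other hepatocyte markers miR-148a-3p, which targets the LDL receptor and is abundant in hepatocytes, had 1085833, 1349426 and 1201478 counts in high-altitude livers against 682055, 335340 and 477473 in low-altitude livers. Every high-altitude library lay above every low-altitude one, at 138597 ± 7729 CPM against 60848 ± 16056 CPM (mean ± SD, n = 3 each). The log2 fold change was 1.29 (SE 0.37), with an unadjusted p of 0.0106 and an adjusted p of 0.7005 in edgeR. A second entry of the same name in the Conserved class had 11147, 15699 and 29822 and 28698, 22697 and 24668 counts, with overlapping altitudes and a log2 fold change of -0.36, or -0.92 to -0.0041 on leaving out each library. miR-101-3p had 233531, 268011 and 148801 against 146737, 106867 and 114712 counts and a log2 fold change of 0.81 (SE 0.34), its lowest high-altitude library lying inside the low-altitude range in CPM. miR-194-5p differed by 0.10 and miR-215-5p by -0.72 on the log2 scale, the latter with 34003 counts in low-altitude replicate 2 against 1753 to 13447 elsewhere. Among the arms of lower abundance, miR-194-3p, miR-148a-5p and miR-885-5p had log2 fold changes of 0.97, 1.32 and 0.42, and miR-885-3p and miR-101-5p of -1.31 and -1.16. On leaving out each library, miR-194-3p ran from 0.66 to 1.66, miR-148a-5p from 0.81 to 2.17, miR-885-5p from -0.20 to 0.85 and miR-101-5p from -3.24 to -0.59. With arms summed, miR-885 and miR-101 gave 0.17 and 0.84. Summed over the 14 hepatocyte arms, the level was 204190, 206276 and 344443 CPM at high altitude and 137316, 146822 and 111257 CPM at low altitude. Of this, miR-148a-3p gave 138058, 146582 and 131152 against 78527, 47174 and 56843 CPM, and miR-122-5p gave 179917 CPM in high-altitude replicate 3. Of the 11 arms that reached 10 CPM, 1 was higher at unadjusted p under 0.05 and without overlap, against 4.23% and 5.63% of all miRNAs at that level. Among the 11, 8 had a positive log2 fold change, with a median of 0.42.

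A few miRNAs made up most of the liver counts. The 10 most abundant of each library took 74.4% ± 3.30 of the counts at high altitude and 65.3% ± 3.32 at low altitude (SD, n = 3 each), and the altitudes did not overlap. The exact two-sided permutation test gave p = 0.1, the smallest that 3 against 3 libraries allow, and 0.4 after adjustment over 4 measures of the libraries. Total counts, the number of miRNAs detected (609 ± 32.2 against 617 ± 40.1) and the share of the leading miRNA had p = 0.5, 0.8 and 0.3 in the same exact test. miR-26a-5p was first on average, with 140984 ± 15839 CPM at high and 186740 ± 14502 CPM at low altitude. It was followed by miR-143-3p, miR-148a-3p, miR-22-3p, miR-30a-5p and miR-122-5p. Of these, miR-26a-5p was lower in all 3 high-altitude libraries in CPM, with a log2 fold change of -0.26 (SE 0.32), which was 0.02 without high-altitude replicate 2. miR-143-3p (0.31), miR-22-3p (-0.11), miR-30a-5p (0.26), let-7f-5p (0.68) and miR-27b-3p (-0.01) had overlapping altitudes, their log2 fold changes given in brackets. On leaving out each library miR-143-3p ran from 0.01 to 0.80 and let-7f-5p from 0.27 to 1.18.

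**Figure D1:**
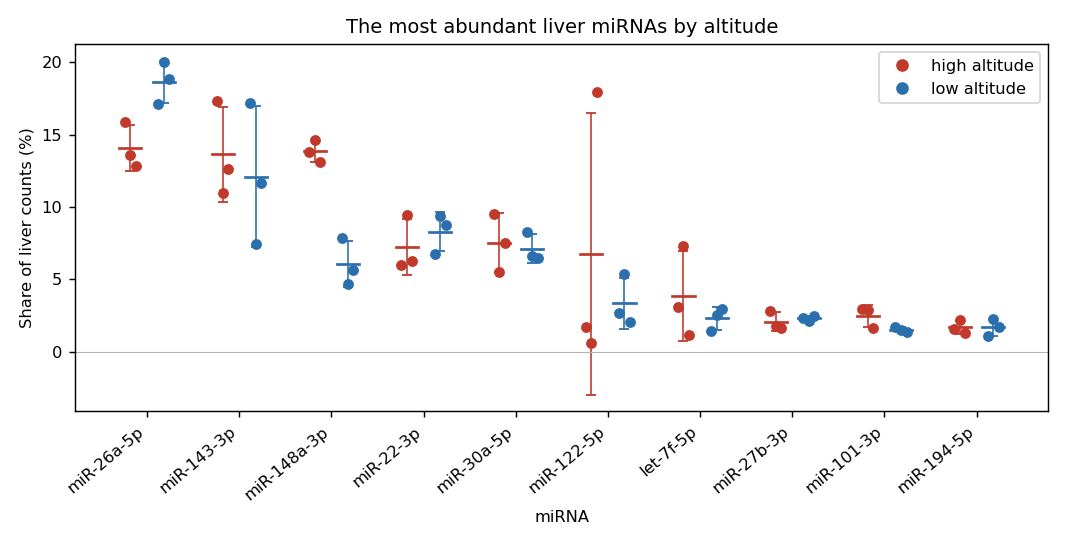
Share of the liver counts taken by the 10 miRNAs of highest mean level (y axis, percent), in each of 3 high-altitude (red) and 3 low-altitude (blue) livers, with the mean and SD of each altitude as a bar with whiskers. miR-148a-3p is higher in all 3 high-altitude livers, and 1 high-altitude liver stands apart for miR-122-5p.

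Across the 1391 miRNAs, 992 had counts in liver, 368 of them in all 6 libraries and 262 in a single library. The Known class held 96.0% of the liver counts in 447 miRNAs, the Conserved class 3.42% in 586, and the 358 miRNAs with no annotated match 0.548%. With edgeR's quasi-likelihood test over all 1391 miRNAs, 0 (0%) passed an adjusted p of 0.05 and an absolute log2 fold change of 1.5, with 0.0813 as the lowest adjusted p. DESeq2 placed 28 past both thresholds, 8 higher and 20 lower at high altitude. Without adjustment, 21 miRNAs were higher (1.51%) and 38 lower (2.73%) at high altitude at p under 0.05. Among the 284 miRNAs that averaged 10 CPM or more over the 6 livers, 12 were higher (4.23%) and 24 lower (8.45%) at that level. In the same 284, every high-altitude library lay above every low-altitude one for 16 (5.63%) and below for 43 (15.1%). Their median log2 fold change was -0.09, -0.20 with library size alone and -0.002 with RLE scaling. When edgeR was fitted on those 284 alone, 18 were higher and 25 lower at unadjusted p under 0.05. In that fit 2 were past both thresholds in the higher direction (0.704%) and 9 in the lower (3.17%). The lower ones were miR-99a-5p, miR-100-5p, miR-125a-5p, miR-125b-5p, miR-224-5p, miR-409-5p, miR-96-5p, miR-143-5p and miR-191-5p. The higher ones were let-7d-3p and miRNA number 48 (3p arm) of those with no annotated match. Of these 11, let-7d-3p and number 48 averaged 10 CPM or more at high altitude and less at low altitude, and miR-409-5p and miR-96-5p the reverse. Such miRNAs entered that fit through the altitude where they were high, so nothing is read from their calls in it. The same holds in each list below for members that reached 10 CPM through one altitude. List counts at unadjusted p come from the fit over all 1391, and some members cross 0.05 in the fit on the 284.

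**Figure D2:**
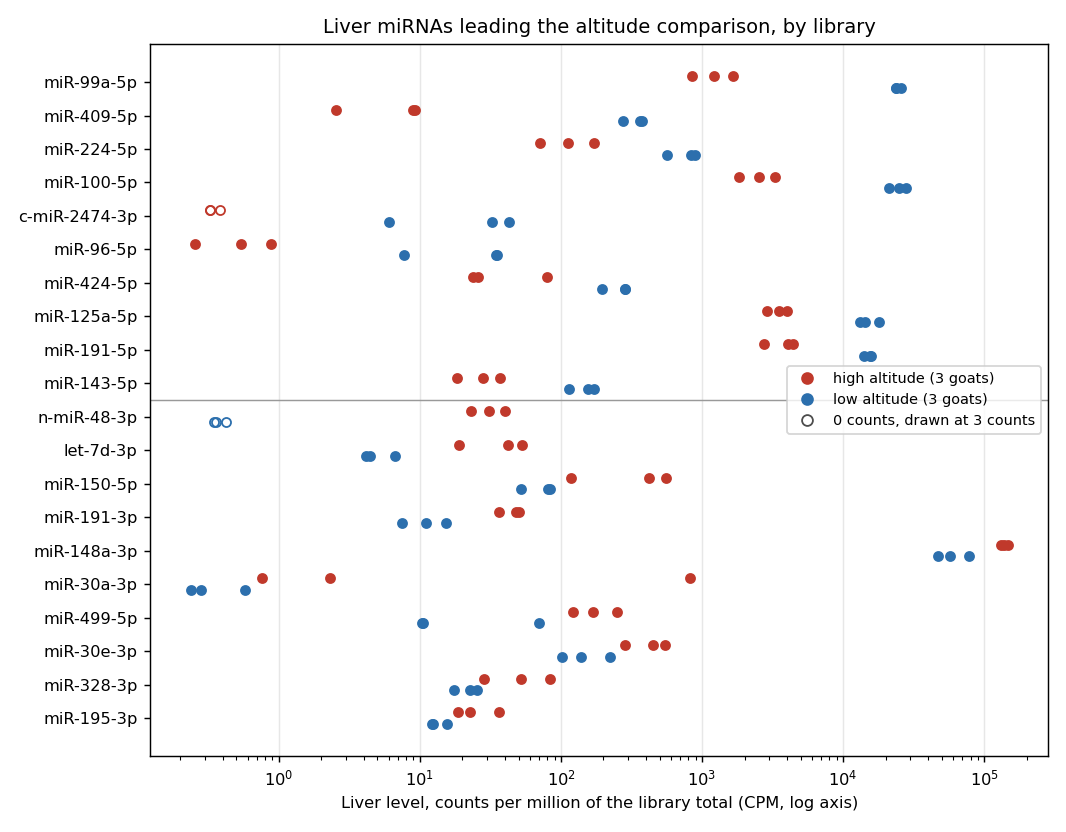
Level in CPM (x axis, logarithmic) of the 10 miRNAs of lowest p in each direction among those whose altitudes did not overlap, with 10 CPM or more on average. Each point is a liver, red for high and blue for low altitude, and open points are counts of 0 drawn at 3 counts, with c- for Conserved and n- for no annotated match. The 3 low-altitude livers of miR-99a-5p sit close together, while miR-30a-3p is high in 1 high-altitude liver.

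The lowest p belonged to miR-99a-5p, of the list of miR-99 with miR-100 and miR-125. miR-99a, miR-99b and miR-100 share a seed and act on mTOR and IGF1 receptor transcripts, while miR-125a and miR-125b are known in cell growth and immune control. miR-99a-5p had 12982, 7769 and 11213 counts in high-altitude livers against 206559, 168648 and 214758 in low-altitude livers. All 3 high-altitude livers were far below all 3 low-altitude livers, at 1240 ± 404 CPM against 24358 ± 1048 CPM (mean ± SD, n = 3 each). The log2 fold change was -4.10 (SE 0.51), with an unadjusted p of 0.000104 and an adjusted p of 0.0813 in edgeR. Fitted on the 284 miRNAs of at least 10 CPM the adjusted p was 0.0336, in a range of 1.12e-10 to 0.491 over all alternatives, with a log2 fold change of -4.42 to -3.69 when each library was left out. The other strand of the same hairpin, miR-99a-3p, had 303, 975 and 539 counts at high and 543, 334 and 498 at low altitude. These overlapped between the altitudes, unlike the 5p counts.

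In the same list, miR-100-5p was lower at high altitude as well. It had 19879, 16849 and 29987 counts in high-altitude livers against 240861, 151027 and 208953 in low-altitude livers, a log2 fold change of -3.08 (SE 0.50) and an adjusted p of 0.147 in edgeR. miR-125a-5p had 22879, 32168 and 36461 and 115155, 102240 and 150921 counts, with a log2 fold change of -1.99 (SE 0.39). miR-125b-5p had 32022, 45137 and 49445 and 119432, 129233 and 167010, with -1.70 (SE 0.37). In all 3 of these the altitudes did not overlap in CPM. miR-99b-5p was counted in replicate 1 of each altitude only, at 10754 and 68270, and was at 0 in the other 4 livers. miR-125b-3p had 1272, 1408 and 1323 against 2034, 1173 and 2203 counts. Of the 12 listed arms of this family, 10 had counts in liver and 7 reached 10 CPM. Of those 7, 4 were lower at unadjusted p under 0.05 and 5 did not overlap between altitudes, against 8.45% and 15.1% of all miRNAs at that level. The median log2 fold change of the 7 was -1.99. The list was chosen with earlier results of these data known, so these counts are not independent evidence. Summed over the family the level was 12736, 11336 and 14080 CPM at high altitude and 86682, 77750 and 88617 CPM at low altitude. In the ARS1.2 assembly the gene of let-7c lies within 10 kb of that of miR-99a. let-7c-5p had 6562, 12380 and 4762 counts at high and 7753, 6046 and 10186 at low altitude, with overlapping altitudes.

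The imprinted DLK1-DIO3 locus encodes one of the largest groups of miRNAs in mammals, expressed from the maternal chromosome. Its miR-409-5p had 20, 85 and 82 counts in high-altitude livers against 3175, 1956 and 3177 in low-altitude livers. The highest of the high-altitude livers was far below the lowest low-altitude one. The log2 fold change was -5.53 (SE 0.71) and the adjusted p 0.0813 in edgeR. The opposite arm, miR-409-3p, had 753, 5518 and 1106 and 2078, 629 and 1280 counts, highest in high-altitude replicate 2. With both arms summed the log2 fold change was -0.95, much closer to 0 than that of the 5p arm. Of the counts of the precursor, 60.4 to 75.7% were 5p in the low-altitude livers and 1.52 to 6.90% in the high-altitude ones. miR-127-3p, the most abundant of the locus, had 20574, 29782 and 34164 against 93016, 37928 and 91586 counts, a log2 fold change of -1.38 (SE 0.48) and no overlap in CPM. miR-411a-5p, the next in abundance, differed by -0.07. miR-495-3p had 29, 34 and 18 counts at high altitude and 0 in every low-altitude liver. It was 8.31-fold higher when 3 counts are put for each 0, which allows for counting error alone. At such low counts the difference rests on few reads. Of the 104 arms listed for the locus, 87 had counts in liver and 30 reached 10 CPM. Among these 30, 0 were higher and 2 lower at unadjusted p under 0.05, 2 did not overlap between altitudes and 8 had a positive log2 fold change, with a median of -0.44 against -0.09 for all miRNAs at that level. Of all 284, 4.23% higher and 8.45% lower at that p and 5.63% higher and 15.1% lower without overlap. The summed level of the locus was 4726, 9750 and 5974 CPM at high and 15264, 8475 and 15330 CPM at low altitude, with overlap. The mature sequences the study lists for miR-409-5p and miR-495-3p are shown because their altitude differences run in opposite directions within the locus, with the seed in capitals.
miR-409-5p: aGGTTACCcgagcaactttgcat
miR-495-3p: aAACAAACatggtgcacttct

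miR-224-5p, which is raised in hepatocellular carcinoma, had 880, 1586 and 650 counts in high-altitude livers against 4898, 5927 and 7448 in low-altitude livers. The altitudes were apart, with a log2 fold change of -2.64 (SE 0.41) and an adjusted p of 0.142 in edgeR. Its other arm, miR-224-3p, was apart in the same direction at 8, 5 and 8 against 32, 27 and 31 counts. miR-3431, whose gene neighbours that of miR-224, overlapped in both arms, at 1024, 2142 and 1129 and 1405, 1445 and 1834 counts for 5p. Its 3p arm had 558, 922 and 315 against 264, 161 and 303, with a log2 fold change of 1.21 (SE 0.51), opposite in sign to miR-224-5p, and an unadjusted p of 0.0499 in edgeR.

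miR-424-5p, a member of the miR-16 seed family induced by low oxygen in endothelial cells, had 186, 733 and 235 counts in high-altitude livers against 1687, 2032 and 2378 in low-altitude livers. It was lower in all 3 high-altitude livers, with a log2 fold change of -2.60 (SE 0.50) and an adjusted p of 0.201 in edgeR. Its genomic neighbour miR-542-3p was lower as well, at 234, 698 and 360 and 1269, 649 and 1276 counts, with -1.43 (SE 0.49). The other arms of these genes overlapped between altitudes in CPM. miR-424-3p had 17, 69 and 4 against 55, 92 and 152 counts, with -2.02 (SE 0.95). miR-542-5p had 0, 100 and 28 against 71, 134 and 120, with -1.67 (SE 1.43). The third gene of this cluster, miR-450, was counted under its 5p or its 3p name depending on the library. Its arms together had 190, 757 and 160 counts at high and 1587, 2351 and 3658 at low altitude, so the precursor too was lower in all 3 high-altitude livers. The genes of miR-183, miR-96 and miR-182, a cluster best known from sensory organs and epithelia, lie together too. miR-96-5p had 2, 5 and 8 counts at high and 67, 247 and 296 at low altitude, with a log2 fold change of -5.30 (SE 0.97). miR-183-5p had 18, 41 and 48 against 102, 146 and 243 and miR-182-5p 194, 483 and 364 against 483, 610 and 1395, with log2 fold changes of -2.20 (SE 0.68) and -1.32 (SE 0.58). For miR-182-5p the unadjusted p was 0.0571 in edgeR, and its log2 fold change ran from -1.49 to -0.73 on leaving out each library. Each of the 3 was lower in every high-altitude liver in CPM, and none passed the adjusted threshold in edgeR over all 1391 miRNAs. Of the 284 miRNAs averaging 10 CPM or more, 15.1% were lower without overlap, and miR-96-5p and miR-183-5p averaged 10 CPM at low altitude only.

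In other precursors the arms differed from each other. miR-191-5p had 21779, 37267 and 40144 counts in high-altitude livers against 133597, 100644 and 132652 in low-altitude livers, with a log2 fold change of -1.89 (SE 0.38). miR-191-3p had 396, 440 and 335 and 134, 53 and 92, with 2.08 (SE 0.57). The altitudes did not overlap for either arm, in opposite directions, and the sum of the arms, which is almost all 5p, had -1.83. miR-143-5p, the minor arm of a smooth muscle miRNA, had 144, 342 and 258 counts at high and 1485, 1096 and 964 at low altitude. It was lower in all 3 high-altitude livers, with -2.31 (SE 0.47), while miR-143-3p, the main arm, gave 0.31. Its neighbour miR-145-3p had 4748, 2315 and 3523 against 13658, 7142 and 8750 counts and -1.36 (SE 0.57), or -1.79 to -0.91 on leaving out each library. miR-145-5p overlapped at 1854, 4034 and 6499 against 5407, 8257 and 4502 counts, with -0.53, and the summed arms of miR-145 had -0.95. let-7d-3p was the reverse case, with 331, 486 and 173 counts at high and 36, 47 and 37 at low altitude. It was higher in all 3 high-altitude livers, with 2.97 (SE 0.56) and an adjusted p of 0.201 in edgeR. let-7d-5p had 2913, 6433 and 1434 and 2967, 4876 and 6321 counts, and the summed arms had -0.39. miR-30e-3p had 4271, 4144 and 2587 against 1922, 989 and 858 counts, with 1.56 (SE 0.51), and its 5p arm, the main one, overlapped between altitudes.

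Among the miRNAs higher at high altitude, number 48 (3p arm) of those with no annotated match had 180, 283 and 367 counts in the 3 high-altitude livers and 0 in every low-altitude liver. With 3 counts put for each 0 it was 83.3-fold higher, and its adjusted p was 0.0828 in edgeR. In the Conserved class miR-2474-3p had the opposite pattern, 0 in all 3 high-altitude livers and 52, 230 and 359 counts at low altitude. With 3 counts put for each 0 it was 78.4-fold lower at high altitude. Both folds allow for counting error alone. Of the 1391 miRNAs, 73 had 0 in one liver and at least 100 counts in another of the same altitude. miR-150-5p, a miRNA of mature lymphocytes, had 3288, 5095 and 1082 counts at high and 703, 597 and 435 at low altitude. The lowest high-altitude liver was above the highest low-altitude one, with a log2 fold change of 2.34 (SE 0.57) and an adjusted p of 0.423 in edgeR. miR-328-3p had 407, 765 and 259 against 151, 161 and 214 counts, with a log2 fold change of 1.34 (SE 0.49). miR-195-3p had 178, 332 and 170 against 108, 110 and 103, with 1.01 (SE 0.47). Both were separated by a narrow margin.

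In the let-7 family, which holds back growth genes such as HMGA2 and LIN28, some libraries counted a precursor under one arm and some under the other. let-7a-5p had 81496 counts in high-altitude replicate 2 and 0 in the other 5 livers, where the counts were under let-7a-3p. The arms together had 52078, 82101 and 26852 counts at high and 29968, 37785 and 50232 at low altitude. These sums overlapped between altitudes, with a log2 fold change of 0.40. let-7e-3p had 3379, 52 and 26 counts at high and 47, 26 and 30 at low altitude, its high value being that of 1 library in which 5p was at 0. Without that library, high-altitude replicate 1, its log2 fold change was -0.05, and for the summed arms of all 6 it was 0.97. Across the 202 precursors with both arms listed and a summed mean of at least 10 CPM, 14 had under 10% of their counts on 5p in one liver and over 90% in another. The sequence listed for let-7a-3p is shown because it carries the seed of the family, which belongs to the 5p strand of let-7 precursors.
let-7a-3p: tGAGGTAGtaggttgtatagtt
Of 15 listed arms of the family all had counts in liver and 14 reached 10 CPM. Of these, 2 were higher and 0 lower at unadjusted p under 0.05, 1 was higher and 2 were lower without overlap, and 7 had a positive log2 fold change, with a median of 0.04. Among all 284 the shares were 4.23% higher and 8.45% lower at that p and 5.63% higher and 15.1% lower without overlap. The abundant members let-7f-5p and let-7g-5p had 241806, 671456 and 108965 against 125628, 178524 and 249647 and 35457, 55458 and 27073 against 36080, 42449 and 45636 counts. Both were highest in high-altitude replicate 2 and lowest in CPM in high-altitude replicate 3. The summed level of the family was 46501, 97195 and 21498 CPM at high and 27894, 43500 and 49825 CPM at low altitude.

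**Figure D3:**
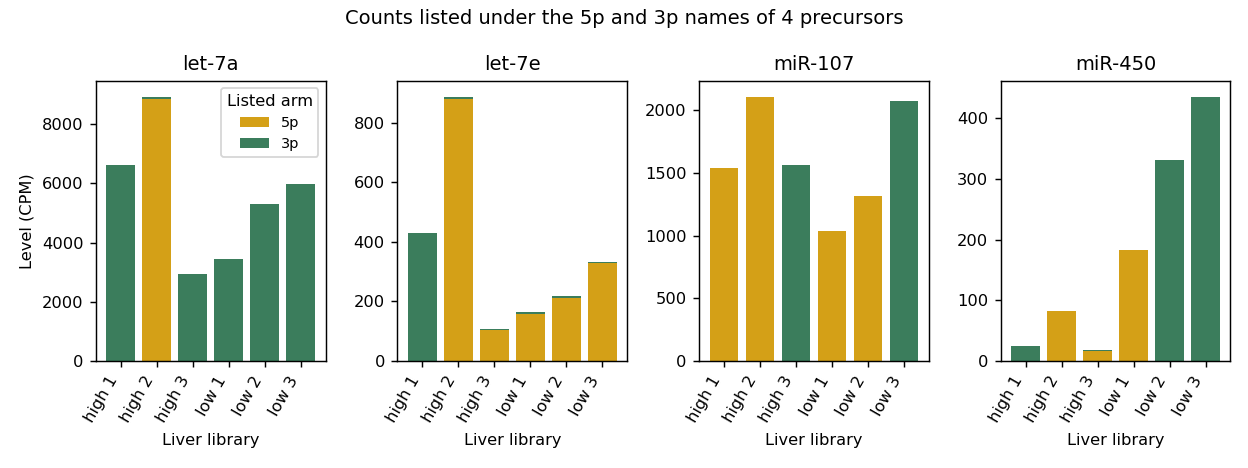
Level in CPM (y axis) of the 5p and 3p arms of let-7a, let-7e, miR-107 and miR-450, stacked for each of the 6 livers (x axis). In each precursor some livers are counted almost wholly under 5p and others almost wholly under 3p.

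The miR-30 family, of which miR-30c is known to act on lipoprotein assembly in the liver, was abundant at both altitudes. miR-30a-5p had 751731, 504906 and 691321 counts at high and 719013, 470909 and 545961 at low altitude, and miR-30e-5p 82903, 167804 and 186118 and 117808, 117394 and 90949, both with overlap. miR-30d-5p had 105442, 125926 and 129179 against 84957, 65190 and 82759 counts, without overlap, and a log2 fold change of 0.66 (SE 0.34). Its minor arm miR-30d-3p had 601 and 567 counts in high-altitude replicates 2 and 3 and 0 in the other 4 livers, and the summed arms gave 0.70. miR-30a-3p had 18, 7619 and 7 counts at high and 5, 2 and 2 at low altitude. The value of 9.13 (SE 2.77) on the log2 scale rested on high-altitude replicate 2, without which it was 2.36, and the summed arms gave 0.29. miR-30c-5p was at 0 in 4 livers and had 2333 and 1112 counts in low-altitude replicates 2 and 3. The sequence the study lists for miR-30d-3p, counted in high-altitude replicates 2 and 3 only, is 18 bases long. Its capitals mark bases 2 to 8 of the sequence as listed. Whether that is the whole mature strand was not tested, so they are not given as its seed.
miR-30d-3p: cAGTCAGAtgtttgctgc
Of 12 listed arms, 10 reached 10 CPM, 3 of them higher and 1 lower at unadjusted p under 0.05 and 3 higher without overlap, with 7 positive log2 fold changes and a median of 0.53. Of the 3 higher ones at that p, miR-30a-3p rested on 1 liver and miR-30d-3p on 2. All 284 miRNAs had 4.23% higher and 8.45% lower at that p and 5.63% higher and 15.1% lower without overlap. Their summed level was 120571, 88728 and 110645 CPM at high and 107102, 93094 and 86334 CPM at low altitude.

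The study tied 15 liver miRNAs to target pathways, a list chosen on these samples, so that their differences are not independent evidence. Of these, 10 had an unadjusted p under 0.05 in edgeR and 5 of the 10 were higher at high altitude, beside 1.51% higher and 2.73% lower over all 1391. Counts were present in all 6 livers for 4 and in a single liver for 4, an altitude was at 0 throughout for 9, the altitudes did not overlap for 6, and 4 came from precursors that switch arms between livers. Of the 11 that reached 10 CPM, 3 were higher and 4 lower at unadjusted p under 0.05, 1 was higher and 3 lower without overlap, and 6 had a positive log2 fold change, with a median of 5.35. All 11 averaged 10 CPM or more at one altitude only, so nothing is read from these counts or from the median. Of the 284 at that level, 4.23% higher and 8.45% lower at that p and 5.63% higher and 15.1% lower without overlap. That median is the value of let-7e-3p, which was -0.05 without high-altitude replicate 1, and let-7a-5p, miR-92b-3p and number 91 each had counts in 1 liver. Beside those given above, miR-92b-3p had 19936 counts in high-altitude replicate 1 and 0 in the other livers. miR-509-3p of the Conserved class had 0, 8 and 0 counts at high and 126, 172 and 353 at low altitude, lower in all 3 high-altitude livers. miR-2284a-5p of that class had 21, 91 and 3 counts at high altitude and 0 at low altitude, most of them in replicate 2. It is among the 6 without overlap, but its high-altitude replicate 3 had no more than the 3 counts put for a 0. miR-3099-3p of the same class had 0 in high-altitude livers against 121, 0 and 130 in low-altitude livers. miR-106a-5p of the Conserved class had 231 counts in low-altitude replicate 2 and 0 elsewhere. Numbers 91 (3p arm) and 201 (5p arm) of the miRNAs with no annotated match had most of their counts in 1 liver, 1144 in high-altitude replicate 2 and 2271 in low-altitude replicate 3. The summed level of the 15 was 2978, 9900 and 77.6 CPM at high and 408, 701 and 878 CPM at low altitude.

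Among miRNAs known to respond to low oxygen, 46 of 48 listed arms had counts in liver and 27 reached 10 CPM. Both listed arms of miR-210, in the Conserved class, had counts in liver but did not reach 10 CPM. The counts among the 27 therefore leave miR-210 out. Of the 27, 0 were higher and 1 was lower at unadjusted p under 0.05, 2 were higher and 4 lower without overlap, and 10 had a positive log2 fold change, with a median of -0.05 against -0.09 for all miRNAs at that level. Over the 284 miRNAs these shares were 4.23% higher and 8.45% lower at that p and 5.63% higher and 15.1% lower without overlap. The one at p under 0.05 was miR-424-5p. In edgeR fitted on the 284 alone, miR-26b-5p and miR-27b-5p were under that p as well. Both were higher, with log2 fold changes of 0.68 and 1.21. miR-24-3p had 12945, 10928 and 24402 counts at high and 37332, 35717 and 32147 at low altitude, and miR-106b-5p 401, 450 and 335 against 737, 784 and 592. Both were lower in every high-altitude liver in CPM, while miR-23b-3p, with 6742, 8086 and 11032 against 6418, 5431 and 4637, was higher. The summed level was 224187, 224311 and 187851 CPM at high and 234025, 274517 and 269673 CPM at low altitude, most of it miR-26a-5p.

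Of 43 arms tied to lipid and glucose metabolism in liver, 37 had counts and 27 reached 10 CPM. Of the 27, 1 was higher and 3 were lower at unadjusted p under 0.05, 3 were higher and 5 lower without overlap, and 13 had a positive log2 fold change, with a median of -0.01. The shares over all 284 were 4.23% higher and 8.45% lower at that p and 5.63% higher and 15.1% lower without overlap. The higher one was miR-148a-3p and the lower ones miR-143-5p, miR-96-5p and miR-30c-5p, of which the last 2 reached 10 CPM through the low-altitude livers alone. In edgeR fitted on the 284 alone, miR-27b-5p was higher at that p as well. miR-335-5p had 752, 1949 and 2621 counts at high and 3284, 5328 and 3197 at low altitude and miR-29a-3p 60397, 69068 and 51089 against 74226, 91097 and 64593, neither overlapping in CPM. The summed level was 530928, 434941 and 597387 CPM at high and 490614, 420654 and 425660 CPM at low altitude. Among 34 arms tied to liver fibrosis, 30 had counts and 21 reached 10 CPM. Of the 21, 0 had an unadjusted p under 0.05 in either direction, 1 was higher and 3 were lower without overlap, and 9 had a positive log2 fold change, with a median of -0.34. In edgeR fitted on the 284 alone, miR-195-3p was higher at an unadjusted p of 0.0201, with a log2 fold change of 1.08. miR-21-5p, raised in activated stellate cells, had 53204, 214743 and 107949 counts at high and 68892, 145922 and 157155 at low altitude, and miR-16a-5p 43998, 121198 and 44986 against 67010, 130972 and 128487, both with overlap. miR-221-3p was counted in low-altitude replicate 3 alone, at 1125. The summed level of this list, in which miR-199a-3p and miR-199b-3p or miR-199c-3p hold nearly the same counts, was 37281, 68449 and 34649 CPM at high and 40818, 68126 and 61586 CPM at low altitude. In the miR-17-92 cluster and its paralogues, which promote cell division, 23 of 27 listed arms had counts and 11 reached 10 CPM. Of the 11, 0 had an unadjusted p under 0.05, 1 was lower without overlap and 3 had a positive log2 fold change, with a median of -0.17. miR-92a-3p had 24467, 65818 and 23831 counts at high and 27302, 25252 and 22216 at low altitude and miR-25-3p 21001, 27873 and 22875 against 22822, 17938 and 20038, with summed levels for the list of 9412, 12819 and 7390 CPM and 7803, 9848 and 6970 CPM.

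Markers of other cell types were followed for their level in each liver. Their counts stand beside shares over all 284 miRNAs of 4.23% higher and 8.45% lower at that p and 5.63% higher and 15.1% lower without overlap. Among leukocyte markers 13 of 13 arms had counts and 7 reached 10 CPM, 1 of them higher at unadjusted p under 0.05 and 2 higher without overlap, 6 with a positive log2 fold change and a median of 0.37. These were miR-150-5p and the myeloid miR-223-3p, which had 2244, 3827 and 1610 counts at high altitude and 595 in low-altitude replicate 1 alone. In edgeR fitted on the 284 alone, miR-223-3p had a log2 fold change of 3.69 (SE 2.75) and an unadjusted p of 0.232. The most abundant, miR-142-5p of the Conserved class, overlapped at 171949, 92721 and 90127 against 106173, 41011 and 84487, and the summed level was 26515, 13472 and 16528 CPM at high and 17582, 8589 and 15580 CPM at low altitude. The erythroid markers, without miR-451, which was not analysed here, had 4 of 4 arms with counts and 3 at 10 CPM. Of those 3, 0 had an unadjusted p under 0.05, 1 was lower without overlap and 0 had a positive log2 fold change, with a median of -1.02. It was miR-486-5p of the Conserved class, with 16, 56514 and 39241 counts at high and 75212, 67737 and 69815 at low altitude. Their summed level was 343, 6388 and 4285 CPM at high and 9104, 9959 and 8658 CPM at low altitude, so blood markers differed between libraries, and their part in the results was not tested.

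Smooth muscle and stellate cell markers had 13 of 17 arms with counts and 11 at 10 CPM. Of the 11, 2 were lower at unadjusted p under 0.05 and without overlap, miR-143-5p and miR-145-3p, and 5 had a positive log2 fold change, with a median of -0.53. Their summed level, most of it miR-143-3p and with the miR-199 counts under 2 names likewise, was 189735, 132374 and 137949 CPM at high and 188736, 88370 and 133420 CPM at low altitude. Striated muscle markers had 9 of 12 arms with counts and 6 at 10 CPM, all 6 with a positive log2 fold change and a median of 0.80, 1 of them higher at unadjusted p under 0.05 and without overlap. This was miR-499-5p, with 1960, 1113 and 1552 counts at high and 90, 493 and 88 at low altitude and a log2 fold change of 2.88 (SE 0.90), or 2.50 to 4.23 on leaving out each library, the highest without low-altitude replicate 2. miR-133a-3p, the most abundant, had 26597, 25368 and 22805 and 3257, 35231 and 10713 counts, with low-altitude replicate 2 highest of all 6, and miR-133b-5p of the same list had the same counts. At a median of 2622 CPM in liver it stood far under its 240838 CPM in longissimus muscle, and both arms of miR-208a were at 0. miR-208b-3p of the same list had 294, 974 and 164 counts in high-altitude livers and 65, 507 and 76 in low-altitude ones, with overlap. The summed level of these markers was 7138, 5815 and 5302 CPM at high and 792, 10180 and 2599 CPM at low altitude, and their part in the results was not tested. The endothelial markers, the 2 arms of miR-126, had 0 at unadjusted p under 0.05, 0 without overlap, 1 positive log2 fold change and a median of 0.11. The summed level was 23152, 18636 and 19078 CPM at high and 20382, 21243 and 16320 CPM at low altitude, and miR-126-5p had 137418, 82104 and 132423 against 101783, 62788 and 62332 counts. All 9 arms of the bile duct and epithelial markers had counts and 5 reached 10 CPM, with 0 at unadjusted p under 0.05, 0 without overlap, 0 positive log2 fold changes and a median of -0.43. miR-141-3p was the most abundant at 1850, 1402 and 5506 against 4550, 5998 and 7747 counts, in a summed level of 532, 946 and 1088 CPM at high and 911, 1749 and 1734 CPM at low altitude. Markers of ciliated airway had 7 of 8 arms with counts and 1 at 10 CPM, miR-34c-5p, with 93, 410 and 282 against 210, 44 and 141 counts and overlap, which makes the median of the list 0.88. Their summed level was 17.4, 56.8 and 38.8 CPM at high and 36.3, 20.7 and 34.4 CPM at low altitude.

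Whether the altitude difference in liver departed from its mean in the other 5 tissues was tested over all 36 libraries, with the goat as a block, taking the replicate number within an altitude as the goat. At an adjusted p of 0.05, 0 of 1391 miRNAs passed in edgeR and 39 had an unadjusted p under 0.05, and DESeq2 was not run on this question. Without the goat block 1 miRNA passed in place of 0, number 48 (3p arm), at an adjusted p of 0.0300 in edgeR. It also passed with edgeR's filterByExpr and with its arms summed, at adjusted p of 0.0460 and 0.0187 in edgeR. The lowest p was that of number 48 (3p arm) of the miRNAs with no annotated match, whose log2 difference, liver less the others, was 13.92 (SE 2.69) with an adjusted p of 0.0699 in edgeR. As its low-altitude livers are at 0, the size of this fitted value depends on the prior count, as do those of the next 2. Another miRNA had the lowest p when high-altitude replicate 3 or any of low-altitude replicates 1, 2 and 3 was left out, and without low-altitude replicate 3 miR-769-5p of the Conserved class passed. Outside liver the highest level of number 48 (3p arm) was 24.1 CPM, from 262 counts in low-altitude lung replicate 2, with 0 in every other lung library. That library is part of the mean of the other tissues, so it too enters the fitted difference. miR-495-3p followed at 9.26 (SE 2.19) and miR-1249-3p at 6.61 (SE 1.64), with adjusted p of 0.253 and 0.264 in edgeR. Outside liver miR-495-3p was uneven, with 76, 105 and 1806 counts in low-altitude muscle and 0, 1360 and 892 in low-altitude kidney. Those libraries also enter its fitted difference. miR-1249-3p had 12, 18 and 3 counts at high altitude and 0 at low altitude in liver, its high-altitude replicate 3 having no more than the 3 counts put for a 0. For miR-99a-5p the log2 fold change was -4.10 in liver, -3.44 in heart, -3.83 in kidney, -4.21 in spleen, -2.18 in muscle and 0.67 in lung. The difference between liver and the mean of the others was -1.64 (SE 0.77), with an adjusted p of 1 in edgeR. miR-409-5p was lower at high altitude without overlap in liver, heart, kidney, muscle and spleen, with log2 fold changes of -5.53, -4.86, -5.01, -6.28 and -5.03, and overlapped in lung at 0.62.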

How the data were processed

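Small RNA counts of 6 liver libraries were compared between altitudes. The deposited values are read counts per mature miRNA made by the authors, who called bases with CASAVA 1.8, mapped reads to the ARS1 assembly with Bowtie with 0 mismatches, matched them to miRBase 21 and listed those reaching 3 reads in any library. No further filter was used. CPM is the count scaled to a library total of 1000000. Altitudes were compared in edgeR 4.0.16 (TMM, quasi-likelihood test, Benjamini-Hochberg over 1391 miRNAs) under R 4.3.3, as log2 high over low, and called at adjusted p below 0.05 with a log2 fold change of 1.5 or more in size. The test within edgeR is not named by the study. The low and high replicates are different goats and were not paired. Library measures were compared by exact two-sided permutation tests. Alternatives were DESeq2 1.42.0, other edgeR tests, scalings and filters, summed arms, equal counts kept once, a fit over 36 libraries, a replicate block and leaving out each library. Values were arranged in Python 3.11.15 with pandas 2.3.3 and NumPy 2.4.6 and drawn with matplotlib 3.10.9.

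Members, lists and rules were chosen with earlier results of these data known. The rule named, in each direction, the 10 miRNAs of lowest p among those with a mean of at least 10 CPM and no overlap, any past both thresholds, the 10 most abundant, the hepatocyte marker arms and the leading member of each other marker list (endothelial, leukocyte, erythroid, smooth muscle or stellate, epithelial, striated muscle, airway), the study's liver list, the 2 most abundant and the lowest p of each group list (hypoxia, lipid and glucose metabolism, fibrosis, let-7, miR-30, DLK1-DIO3, miR-99 with miR-100 and miR-125, miR-17-92), and the 3 of lowest p in the test against the other tissues. miR-125b-5p, miR-183-5p, miR-182-5p, miR-542-3p, miR-145-3p, and all other arms, neighbours and list members were named after their values were seen. Gene neighbours were taken from ARS1.2, as genes within 10 kb, where 244 of 264 miRNA gene symbols matched a listed miRNA. The ARS1.2 positions served for this alone. List medians were the same with miRNAs at 0 in an altitude set to their bound at 3 counts per library. Sequences are those of the study's supplementary tables.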

Additional observations from a re-analysis of the deposited data

How the results depend on the processing

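The number past both thresholds, 0, was 28 with DESeq2 and 31 with its independent filtering, 8 with edgeR's exact test, 12 with its likelihood ratio test, 2 with library size only, 6 with filterByExpr, 11 among miRNAs averaging 10 CPM or more, 1 with arms summed, 7 in the fit over 36 libraries and 3 at an adjusted p under 0.1. It was 0 with RLE, at least 1 count, equal counts kept once, no minimum fold change, a replicate block, and on leaving out any library. The number at unadjusted p under 0.05 was 98 with DESeq2, with and without filtering, with the likelihood ratio test and with the fit over 36 libraries, and 48 to 66 on leaving out a library. By edgeR with TMM 21 were higher and 38 lower, by RLE 23 and 34, by DESeq2 43 and 55, in the fit over 36 libraries 48 and 50, 23 and 25 without high-altitude replicate 2, and 29 and 29 without low-altitude replicate 1. miR-99a-5p was past both thresholds in 8 of 19 settings, and the summed arms of miR-99a passed in 1 more. In liver against the other tissues the number was 1 with filterByExpr, 1 with arms summed and 1 without the goat block, and 0 to 1 on leaving out a replicate, where low-altitude replicate 3 left out gave 1, miR-769-5p of the Conserved class. The top-10 share difference of 9.10 was 11.7 without each library's leading miRNA and 7.76 to 10.99 on leaving out a library.

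Log2 fold changes that turned with arms summed were those of miR-143-5p (0.34), let-7d-3p (-0.39), miR-191-3p (-1.83), miR-27b-3p (0.027), miR-122-3p (1.47), miR-215-3p (-0.71), miR-148a-5p of the Conserved class (-0.31), miR-885-3p (0.17) and miR-101-5p (0.84). In these the other arm holds most of the sum, except for miR-27b-3p, which is itself the main arm. miR-27b-3p, near 0, was 0.083 with DESeq2, with and without filtering, and with RLE, 0.0065 with filterByExpr, 0.033 among miRNAs averaging 10 CPM or more, 0.089 with equal counts kept once and 0.055 in the fit over 36 libraries. miR-411a-5p was 0.023 with DESeq2, with and without filtering, and with RLE, 0.033 among miRNAs averaging 10 CPM or more, 0.061 with equal counts kept once and 0.032 in the fit over 36 libraries. miR-194-5p was -0.0082 with library size only. With a replicate block miR-122-5p was -0.27 and miR-215-5p 0.081.

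Leaving out each library gave -0.43 to 0.019 for miR-26a-5p, -0.0037 to 0.65 for miR-30a-5p, -1.29 to 2.03 for miR-122-5p, -0.39 to 0.33 for miR-27b-3p, -0.0029 to 0.27 for miR-194-5p, -0.51 to 0.40 for miR-122-3p, -1.76 to 1.45 for miR-215-5p, -0.20 to 0.85 for miR-885-5p, -0.32 to 0.14 for miR-21-5p, -0.25 to 0.11 for let-7g-5p, -0.38 to 0.31 for miR-411a-5p and -0.055 to 6.01 for let-7e-3p. The cause of the other differences was not tested. Of the 1391 miRNAs, 73 had 0 counts in one liver and at least 100 in another of the same altitude, 46 of them among the 284, and the cause was not tested. Breed, rearing and altitude cannot be told apart.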

Other observations

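Some liver miRNAs were listed under more than one name with the same or nearly the same counts. miR-133a-3p and miR-133b-5p had equal counts in all 6 livers, so the summed level of the striated muscle markers holds these counts under both names. miR-199b-3p had 57770 counts in high-altitude replicate 1 and 34079 in low-altitude replicate 2 and was at 0 in the other 4 livers. In those 4, miR-199c-3p had 88340, 45856, 52315 and 53793 counts, and it was at 0 where miR-199b-3p was counted. miR-199a-3p, which belongs to the stellate cell and fibrosis lists, had 57861, 88890 and 46235 counts at high altitude against 52532, 34278 and 54111 at low altitude, close in each liver to whichever of the other names was counted there. The summed levels of the stellate cell and fibrosis markers therefore hold nearly these counts under both names. In high-altitude replicate 3 and low-altitude replicate 3, miR-107-3p had 14314 and 17437 counts, beside 14358 and 17514 of miR-103-3p in the hypoxia and metabolism lists. Over all 36 libraries, 104 miRNAs had the same counts in every library as another miRNA.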
